A study of Homo sapiens with 22 samples.

Results

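The translation initiation factors examined here were 48 protein-coding genes of the human cell line HEK293T, out of 15093 genes with at least 1 tested transcript. They were chosen by name: every protein-coding gene whose GENCODE symbol begins with EIF and a digit from 1 to 6, without EIF4E2 and without the EIF2AK genes, which encode kinases of eIF2. Each gene was represented by 1 transcript, the protein-coding one with the highest mean read count over 0 to 10 h of chase. Of 51 genes that carried such a name, EIF1AY, EIF4E1B and EIF4EBP3 had a mean below 1 CPM (the read count scaled to the size of its library) and were left out. EIF1B had the lowest mean of the 48, 2.8 CPM, and EIF4EBP3 the highest of those left out, 0.335 CPM.

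Initiation factors bring the small ribosomal subunit, the initiator tRNA and the mRNA together. EIF1, EIF1A and EIF5 act in scanning and in the choice of the start codon, eIF2 carries the initiator tRNA and is recharged with GTP by eIF2B, and the many subunits of eIF3 hold the small subunit and bridge it to the mRNA. The cap is bound by EIF4E, which joins the scaffold eIF4G and the helicase eIF4A with its helpers EIF4B and EIF4H, while the 4E-BP proteins compete with eIF4G for EIF4E. EIF5B joins the subunits, EIF6 keeps the large subunit free, and eIF5A assists elongation and termination. Many mRNAs of the translation machinery begin with a run of pyrimidines, the 5′ terminal oligopyrimidine (TOP) motif, through which mTOR and LARP1 control them.

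HEK293T is an established line derived from human embryonic kidney cells that carries the large T antigen. Cells of both groups expressed an shRNA, either a control hairpin (shControl) or one against ZNF598 (shZNF598), the ubiquitin ligase that marks collided ribosomes. Bromouridine (BrU) was given to both for 24 h and then withdrawn, and cells were taken at withdrawal (0 h) and after a chase of 2, 4, 6, 10 and 24 h, so that BrU immunoprecipitation recovered RNA made before the chase (BRIC-Seq). Each shRNA had 2 libraries at each of the 5 times from 0 to 10 h and 1 library at 24 h, which makes 22 libraries in 12 groups. The number of hairpins, of clones and of separate cultures behind the libraries is not given in the sources used here, so p-values measure the spread between these libraries, which may be technical.

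Libraries of 0 to 10 h held 52352359 to 96963584 counts and those of 24 h 21220829 and 40157613, and a member had 26 to 37415 counts per library over 0 to 10 h. ZNF598 itself had 4.05 to 8.55 CPM in the 10 shControl libraries of 0 to 10 h and 0.419 to 1.07 in the 10 shZNF598 libraries, an averaged difference of log2 −3.05 (SE 0.09, adjusted p = 1.17e-18, edgeR quasi-likelihood test). Of the genes known from HEK293 cells, VIM was at 110 to 160 CPM and INA, NEFL and NEFM were detected, whereas PAX2 and LHX1 did not exceed 0.091 and 0.42 CPM. The markers PTPRC, HBB and ALB of other lineages did not exceed 0.036 CPM, and COL1A1 was at 0.63 to 1.4 CPM. The 2 shControl libraries of 0 h differed most from each other, with a chi-square per degree of freedom of 18.8 where other pairs had 2.31 to 12.6. BRIC-Seq measures bulk RNA, so fewer labelled copies per cell and fewer cells that express a gene cannot be told apart.

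Levels differed widely between members. Per kilobase of transcript, EIF4A1 was highest at 144 CPM, followed by EIF4G2 at 93.4, EIF3I at 79.5, EIF5A at 63.4, EIF4B at 57.6 and EIF4H at 54.9. The lowest were EIF5A2 at 0.686, EIF4E3 at 0.789 and EIF4ENIF1 at 1.24 CPM per kilobase. Within eIF3, whose subunits assemble into 1 complex, the level per kilobase ran from 3.32 for EIF3F to 79.5 for EIF3I. The row of EIF3F is an isoform of 7540 bases at 25.1 CPM, and another isoform of only 844 bases had 18.6 CPM. Isoforms of a gene share reads, so each value per kilobase here depends on the isoform used and does not rank the subunits. The 5 eIF2B subunits lay between 3.24 and 9.14 CPM per kilobase, and the eIF2 subunits that they recharge between 6.74 for EIF2S1 and 33.4 for EIF2S3.

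Whether the knockdown of ZNF598 moved the level of labelled initiation factor mRNA was examined as the log2 difference shZNF598 minus shControl, averaged over the 5 times from 0 to 10 h. Of the 48 members, 10 passed an adjusted p of 0.05 (20.8%), 5 higher and 5 lower, where 22.4% of all 79513 tested transcripts were called, 12.3% higher and 10.1% lower. The count of called members was thus near the background. At an unadjusted p below 0.05 were 13 members, or 27.1%, against 35% of all tested transcripts. EIF4A2, EIF5A2, EIF3F, EIF4B and EIF2A were higher, by 0.16 to 0.30 on the log2 scale, and EIF4G2, EIF4EBP2, EIF4EBP1, EIF4H and EIF4A1 were lower, at −0.42 to −0.14. The members' median difference was 0.029, and that of all tested transcripts 0.020. By role, 7 of the 10 called members belonged to the eIF4 group and its inhibitors, which hold 13 of the 48 genes. None of the 5 start-site factors and none of the 9 eIF2 and eIF2B genes was called.

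**Figure D1:**
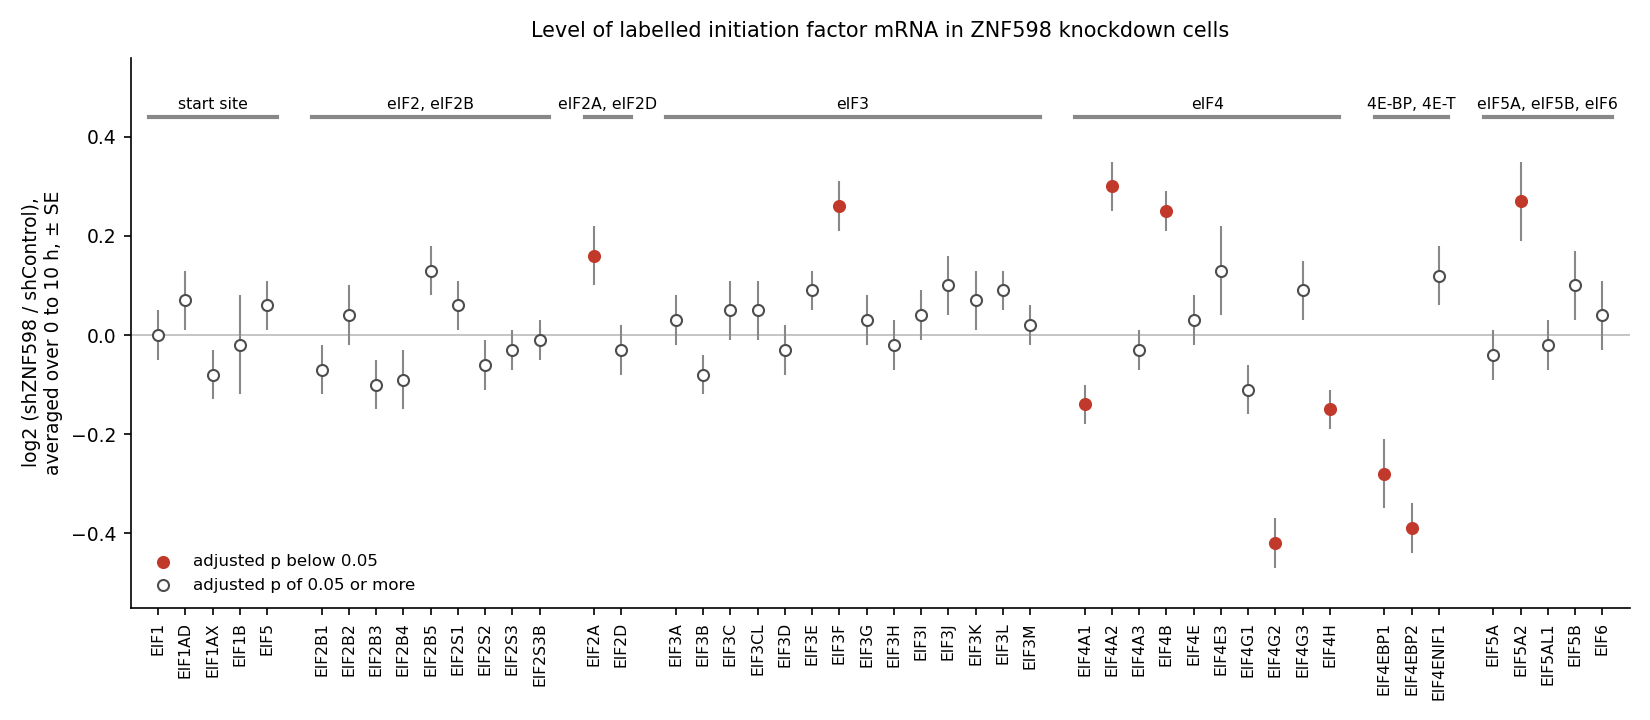
Log2 ratio of shZNF598 to shControl averaged over 0 to 10 h of chase (y axis, with SE) for each of the 48 initiation factor genes (x axis), grouped by role, with filled points for an adjusted p below 0.05. The 10 filled points run from −0.42 (EIF4G2) to 0.30 (EIF4A2), and 7 of them lie in the eIF4 group and among its inhibitors.

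The largest difference was that of EIF4G2, also called DAP5, an eIF4G relative that lacks the EIF4E-binding site and serves cap-independent and alternative initiation. In shControl its 2 libraries had 322 and 276 CPM at 0 h, 333 and 346 at 2 h, 379 and 365 at 4 h, 509 and 504 at 6 h, and 584 and 639 at 10 h. In shZNF598 they had 270 and 270 CPM at 0 h, 282 and 277 at 2 h, 333 and 288 at 4 h, 387 and 314 at 6 h, and 374 and 298 at 10 h. Both shZNF598 libraries lay below both shControl libraries at all 5 times, and the ratio of the means fell from 0.902 at 0 h to 0.55 at 10 h. The averaged difference was log2 −0.42 (SE 0.05, adjusted p = 2.02e-06, edgeR), and all 31 tested transcripts of the gene were called lower, at −0.48 to −0.36. Isoforms of a gene share reads in these counts, so such rows are not separate measurements. The other scaffolds were not called: EIF4G1, the main scaffold, was at −0.11 (SE 0.05, adjusted p = 0.0796) and EIF4G3 at 0.09 (SE 0.06, adjusted p = 0.316), by the same test. EIF4G1 passed with library totals (adjusted p = 0.0379) and in the fits without the shControl 0 h replicate 2 library or without the shZNF598 6 h replicate 2 library, with an adjusted p of 0.0297 in the latter. EIF4G3 ran from 0.03 to 0.16 over the fits that left out 1 library and passed without the shControl 0 h replicate 1 library (adjusted p = 0.00755).

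**Figure D2:**
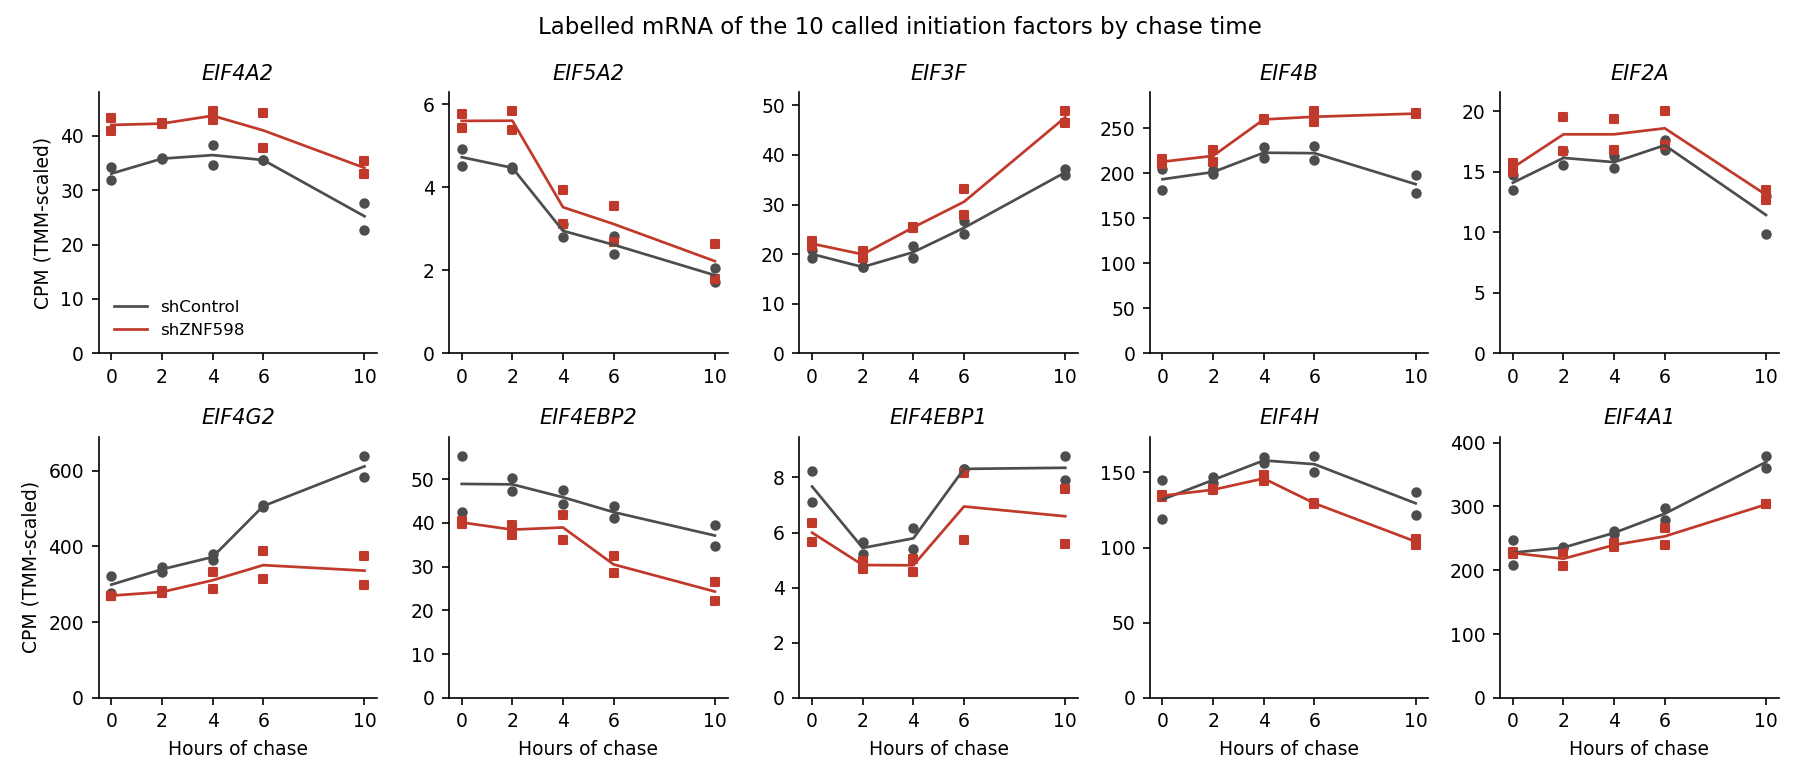
TMM-scaled CPM (y axis, from 0) against hours of chase (x axis) for the 10 called members, with a point for each library, a line through the means of the 2 libraries, shControl in grey and shZNF598 in red. The upper row holds the 5 members that were higher in shZNF598 and the lower row the 5 that were lower, and for EIF4G2 the lines part with time, to 611 and 336 CPM at 10 h.

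The eIF4A paralogues, helicases that unwind the 5′ end of the mRNA, went in opposite directions. EIF4A2 had 34.2 and 31.9 CPM at 0 h, 35.9 and 35.7 at 2 h, 34.6 and 38.3 at 4 h, 35.5 and 35.6 at 6 h, and 22.7 and 27.7 at 10 h in shControl. In shZNF598 it had 40.8 and 43.2 CPM at 0 h, 42.4 and 42.1 at 2 h, 42.9 and 44.5 at 4 h, 44.2 and 37.8 at 6 h, and 35.3 and 32.9 at 10 h. The knockdown libraries were above both controls at all 5 times, and the averaged difference was log2 0.30 (SE 0.05, adjusted p = 6.62e-05, edgeR), with all 26 tested transcripts of the gene called higher.

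EIF4A1, the more abundant helicase, had 208 and 247 CPM at 0 h in shControl against 226 and 228 in shZNF598, and 360 and 379 CPM at 10 h against 303 and 303. The groups overlapped at 0 h and were apart, with shZNF598 lower, at the other 4 times. The averaged difference was log2 −0.14 (SE 0.04, adjusted p = 0.0198, edgeR), and 25 of 36 tested transcripts were called lower and none higher. Without the shControl 6 h replicate 2 library, EIF4A1 had an adjusted p of 0.0507. On the same strand, exons of the gene ENSG00000264772 cover 99.9% of the EIF4A1 row and those of the read-through gene SENP3-EIF4A1 83.4%, so their reads cannot be told apart from those of EIF4A1. Per kilobase, EIF4A2 stood at 12 and 15.4% of EIF4A1 at 0 h in shControl and at 16.9 and 17.7% in shZNF598, and at 5.89 and 6.81% against 10.9 and 10.1% at 10 h. Both knockdown values were above both control values at all 5 times. EIF4A3, which belongs to the exon junction complex rather than to eIF4F, was at −0.03 (SE 0.04, adjusted p = 0.714).

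**Figure D3:**
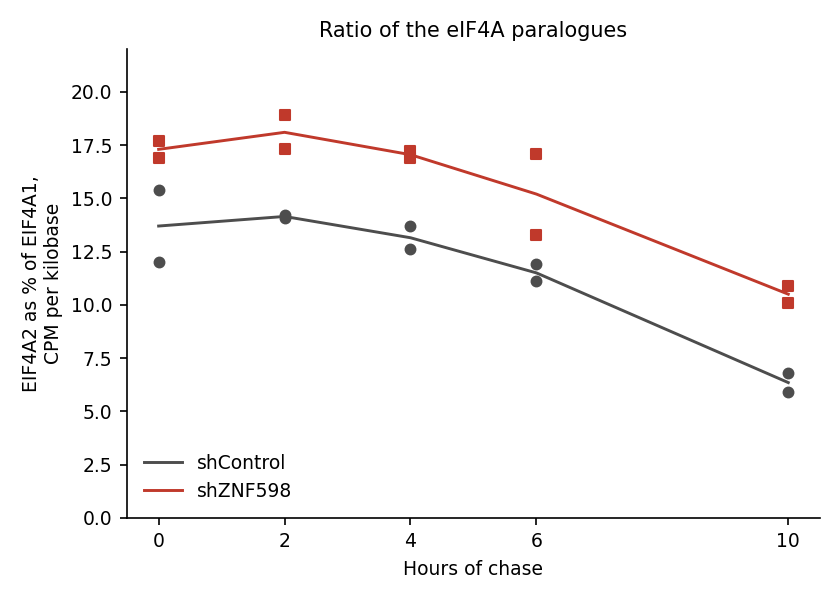
EIF4A2 as a percentage of EIF4A1, both in CPM per kilobase (y axis, from 0), against hours of chase (x axis), with a point for each library and lines through the means of 2 libraries, shControl in grey and shZNF598 in red. The percentage is higher in shZNF598 at all 5 times and is lowest at 10 h in both groups, at 5.89 and 6.81% in shControl and 10.9 and 10.1% in shZNF598.

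The 2 helicase cofactors also differed in direction. EIF4B had 182 and 205 CPM at 0 h, 204 and 199 at 2 h, 217 and 229 at 4 h, 215 and 230 at 6 h, and 178 and 198 at 10 h in shControl. In shZNF598 it had 216 and 210 CPM at 0 h, 226 and 213 at 2 h, 259 and 261 at 4 h, 269 and 257 at 6 h, and 266 and 267 at 10 h. The knockdown libraries were above both controls at every time from 0 to 10 h, with an averaged difference of log2 0.25 (SE 0.04, adjusted p = 1.13e-04, edgeR), and all 14 tested transcripts were called higher.

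EIF4H had 119 and 145 CPM at 0 h in shControl and 134 and 135 in shZNF598, and 122 and 137 CPM against 102 and 106 at 10 h. Its groups overlapped at 0 h and did not at the other 4 times, with an averaged difference of log2 −0.15 (SE 0.04, adjusted p = 0.016, edgeR), and 4 of 5 tested transcripts were called lower. The cap-binding protein EIF4E was at 0.03 (SE 0.05, adjusted p = 0.705), and its weaker relative EIF4E3 at 0.13 (SE 0.09, adjusted p = 0.366), by the same test.

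Both 4E-BP genes, whose products hold EIF4E away from the scaffold, were lower in the knockdown. EIF4EBP2 had 55.3 and 42.5 CPM at 0 h, 47.3 and 50.3 at 2 h, 47.4 and 44.3 at 4 h, 43.8 and 41.1 at 6 h, and 39.6 and 34.6 at 10 h in shControl. In shZNF598 it had 39.8 and 40.4 CPM at 0 h, 37.3 and 39.6 at 2 h, 41.9 and 36 at 4 h, 32.4 and 28.6 at 6 h, and 26.5 and 22.1 at 10 h. The knockdown libraries were below both controls at all 5 times, with an averaged difference of log2 −0.39 (SE 0.05, adjusted p = 1.28e-05, edgeR).

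EIF4EBP1 had 7.1 and 8.24 CPM at 0 h, 5.66 and 5.22 at 2 h, 6.16 and 5.42 at 4 h, 8.31 and 8.31 at 6 h, and 8.78 and 7.92 at 10 h in shControl. In shZNF598 it had 5.66 and 6.33 CPM at 0 h, 4.95 and 4.69 at 2 h, 5.04 and 4.58 at 4 h, 5.73 and 8.16 at 6 h, and 5.6 and 7.58 at 10 h. Its groups were also apart at all 5 times, but at 6 and 10 h the second knockdown library, at 8.16 and 7.58 CPM, lay close to the controls. The averaged difference was log2 −0.28 (SE 0.07, adjusted p = 0.00482, edgeR). EIF4ENIF1, the transporter that takes EIF4E into the nucleus and to processing bodies, was at 0.12 (SE 0.06, adjusted p = 0.184).

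Among the 14 eIF3 genes only EIF3F was called. This subunit, which like EIF3H carries an MPN domain, had 19.2 and 20.8 CPM at 0 h, 17.3 and 17.5 at 2 h, 21.6 and 19.2 at 4 h, 24 and 26.6 at 6 h, and 35.9 and 37.1 at 10 h in shControl. In shZNF598 it had 22.6 and 21.6 CPM at 0 h, 20.6 and 19.3 at 2 h, 25.3 and 25.5 at 4 h, 27.9 and 33.2 at 6 h, and 46.4 and 48.8 at 10 h. The groups were apart at all 5 times, with an averaged difference of log2 0.26 (SE 0.05, adjusted p = 2.45e-04, edgeR), and all 9 tested transcripts of the gene were called higher. The other 13 eIF3 genes were between −0.08 and 0.10, with EIF3E and EIF3L at 0.09, EIF3A at 0.03, EIF3I at 0.04, EIF3H at −0.02 and EIF3B at −0.08. EIF3CL is a copy of EIF3C whose count was 98.8 to 99.7% of that of EIF3C in every library, so their reads were not separated and their values are 1 measurement.

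In all, 6 members had knockdown libraries on 1 side of both controls at all 5 times: EIF3F, EIF4A2 and EIF4B above, and EIF4EBP1, EIF4EBP2 and EIF4G2 below. That is 6.25% of the 48 above and 6.25% below, where 2.05% of all tested transcripts were above and 2.44% below.

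EIF5A2, the less abundant paralogue of EIF5A, had 4.93 and 4.52 CPM at 0 h in shControl and 5.76 and 5.44 in shZNF598, and 1.71 and 2.05 CPM against 2.64 and 1.8 at 10 h. The groups were apart at 2 of the 5 times. The averaged difference was log2 0.27 (SE 0.08, adjusted p = 0.0138, edgeR), and without the shZNF598 10 h replicate 1 library the adjusted p was 0.0677. Of 3 tested transcripts of the gene, 2 were called higher. EIF5A itself was at −0.04 (SE 0.05, adjusted p = 0.584), EIF5B at 0.10 (SE 0.07, adjusted p = 0.362) and EIF6 at 0.04 (SE 0.07, adjusted p = 0.701). EIF5AL1 had 35.7 to 46.3% of the counts of EIF5A, of which it is a near copy, and its value of −0.02 is uncertain.

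EIF2A, which can bring the initiator tRNA without eIF2, had 14.7 and 13.5 CPM at 0 h in shControl and 15 and 15.7 in shZNF598, and 9.86 and 13 CPM against 13.5 and 12.7 at 10 h. The groups were apart at 3 of the 5 times. The averaged difference was log2 0.16 (SE 0.06, adjusted p = 0.0425, edgeR), and this call was lost in 14 of 20 fits that each left out 1 library, with an adjusted p of up to 0.117. It was also lost with library totals (adjusted p = 0.0723), with 1 row per gene (0.0575) and over 2 to 10 h, an alternative chosen after seeing the data (0.0631), and 6 of the 14 tested transcripts of the gene were called higher. EIF2D, which also delivers initiator tRNA, was at −0.03 (SE 0.05, adjusted p = 0.688). The 3 eIF2 subunits were at −0.06 to 0.06 and the 5 eIF2B subunits, which exchange the nucleotide on eIF2, at −0.10 to 0.13, with EIF2B3 lowest and EIF2B5 highest. EIF2S3B had 27.1 to 30% of the counts of its near copy EIF2S3. The start-site factors were at −0.08 (EIF1AX) to 0.07 (EIF1AD), with EIF1 at −0.00, EIF1B at −0.02 and EIF5 at 0.06.

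Other genes that act on initiation were set beside the members, from a list chosen with earlier results of these data known. It held 38 genes, all of which passed the CPM minimum. Of these, 9 were higher in the averaged level (23.7%) and 3 lower (7.89%), where 12.3% of all tested transcripts were higher and 10.1% lower. The highest were MKNK2, a kinase of EIF4E, at log2 0.35 (SE 0.05) and PPP1R15A, the inducible subunit of an eIF2 phosphatase, at 0.35 (SE 0.08). The lower genes were MIF4GD at −0.20 (SE 0.07), DENR, a partner of MCTS1 in reinitiation, at −0.18 (SE 0.05) and BZW2, an eIF5 mimic, at −0.17 (SE 0.05). EIF4E2 and GIGYF2, which act with ZNF598 in repression, were at 0.11 (SE 0.05, adjusted p = 0.114) and 0.08 (SE 0.05, adjusted p = 0.251), and EIF2AK3 was higher at 0.21 (SE 0.07, adjusted p = 0.0303, edgeR).

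Before the chase, at 0 h, none of the 48 members passed an adjusted p of 0.05 for a difference between the shRNAs in edgeR, where 0.407% of all tested transcripts did, 0.0729% higher and 0.335% lower. The DESeq2 Wald test also called none. At an unadjusted p below 0.05 were 4 members, 8.33% of them against 10.1% of all tested transcripts: EIF4A2 at log2 0.35 (SE 0.11, adjusted p = 0.2), EIF4EBP1 at −0.35 (SE 0.15, adjusted p = 0.424), EIF4EBP2 at −0.29 (SE 0.12, adjusted p = 0.417) and EIF4G1 at −0.22 (SE 0.10, adjusted p = 0.463). The next higher members by p were EIF5 at 0.20 (SE 0.11, adjusted p = 0.568) and EIF2S1 at 0.17 (SE 0.11, adjusted p = 0.624). EIF4EBP2 ran from −0.46 to −0.08 in the 20 fits that each left out 1 library, with an adjusted p of 0.0446 without the shControl 0 h replicate 2 library and of up to 0.962 in the others.

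Whether the knockdown changed the decay of these mRNAs was tested by comparing the slopes of log2 level on hours, shZNF598 minus shControl. No member was called in edgeR, where 0.116% of all tested transcripts were, 0.00252% higher and 0.113% lower. An unadjusted p below 0.05 was found for 3 members, or 6.25%, and for 5.53% of all tested transcripts. The largest difference was that of EIF4G2, at −0.072 log2 per hour (SE 0.018, adjusted p = 0.161), which DESeq2 called with an adjusted p of 0.00484. The range of its adjusted p over the edgeR fits that left out 1 library was 0.055 to 0.83. EIF4B was at 0.037 log2 per hour (SE 0.016, adjusted p = 0.818) and EIF2S3 at −0.028 (SE 0.013, adjusted p = 0.881). The next negative difference by p was that of EIF4A1, at −0.027 (SE 0.013, adjusted p = 0.905). The next positive ones were EIF3F at 0.023 (SE 0.022) and EIF4G3 at 0.019 (SE 0.021), with an unadjusted p of only 0.302 and 0.374 in edgeR. The differences of the 48 members ran from −0.072 to 0.037 with a median of −0.0123, 33 of them negative, where the median of all tested transcripts was 0.0008 and the interval between their quartiles −0.0175 to 0.0186.

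Within each shRNA, the slopes of the members spread widely. Slopes are relative to the bulk of labelled RNA, since every library was scaled to the others by TMM. A positive slope marks an mRNA that rose against this scaling and a negative one an mRNA that fell. A slope of 0 is not the middle of the data: the median of all tested transcripts was −0.0178 in shControl and −0.0144 in shZNF598. A weakly negative slope can thus lie above most others, as for EIF2S2 in shControl, at −0.012 and above 56.7% of protein-coding transcripts. In shControl, 21 members had a positive slope and 16 a negative one at an adjusted p of 0.05, where 33.5% of all tested transcripts were positive and 40.8% negative, 74.4% together. In shZNF598, 22 were positive and 17 negative, against 32.7% and 38.5%, 71.2% together. Members were thus positive in 43.8% and 45.8% of cases. Of the protein-coding transcripts alone, 30.3% were positive and 45.8% negative in shControl, and 29.7% and 43% in shZNF598. In log2 per hour, the members had a median slope of 0.0042 under shControl and 0.0030 under shZNF598, and all protein-coding transcripts one of −0.0344 and −0.0287. Without the near copies EIF3CL, EIF2S3B and EIF5AL1 the members' medians were below 0, at −0.0035 and −0.0188, and 18 of 45 were positive and 16 negative in shControl (40% and 35.6%), and 19 and 17 in shZNF598 (42.2% and 37.8%). Across the 48 genes, which are not independent and share fit and scaling, the slopes of the 2 groups had a Pearson r of 0.983 and a Spearman rho of 0.974, and 46 had the same sign.

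**Figure D4:**
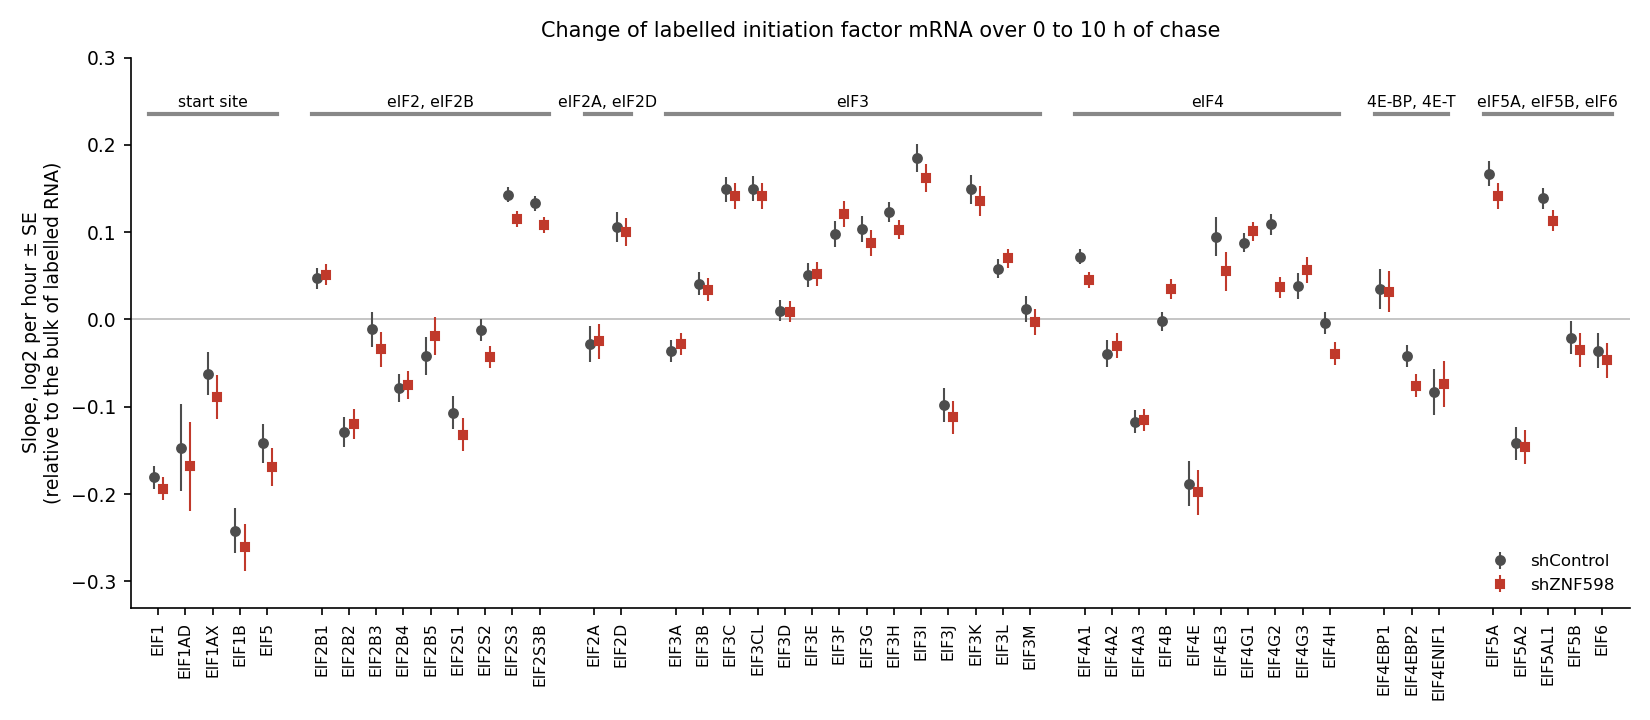
Slope of log2 level on hours of chase over 0 to 10 h (y axis, log2 per hour with SE, relative to the bulk of labelled RNA) for each member (x axis), grouped by role, with shControl in grey and shZNF598 in red. The 5 start-site factors all lie below 0 in both groups, whereas 12 of the 14 eIF3 genes lie above 0 in shControl and 11 in shZNF598.

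The mRNAs for the start-site factors were lost sooner than the bulk. All 5 had negative slopes in both groups, with medians of −0.1468 (shControl) and −0.1694 (shZNF598) log2 per hour. All were called, where 40.8% (shControl) and 38.5% (shZNF598) of all tested transcripts were called negative. EIF1B, a close relative of EIF1, had 5.84 and 4.3 CPM at 0 h and 1.18 and 0.851 at 10 h in shControl, and 5.06 and 4.29 against 1.11 and 0.648 CPM in shZNF598. At 10 h, 20% and 18.8% of its 0 h level were left. Its slopes were −0.242 (SE 0.026) and −0.261 (SE 0.027) log2 per hour, at the 2.09 and 1.01 percentile of all protein-coding transcripts tested. EIF1, the main start-codon gatekeeper, had 40 and 33.7 CPM at 0 h and 11 and 10.1 at 10 h in shControl, and 37.4 and 33.7 against 10.1 and 8.83 in shZNF598. Its slopes were −0.181 and −0.194 (SE 0.013 each).

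EIF5, the GTPase activator of eIF2, had slopes of −0.142 and −0.169 (SE 0.022 each), but its level first stood higher at 2 h (87.9 and 94.7 CPM in shControl) than at 0 h (82.4 and 74.3). EIF1AD, which carries an eIF1A domain and is placed here by it, was at −0.147 and −0.168 (SE 0.050 and 0.051), and its CPM fell to 2.43 and 2.53 at 6 h and stood at 4.85 and 3.77 at 10 h in shControl, so a straight line described it poorly. EIF1AX was at −0.062 and −0.089 (SE 0.025 each), the 41.7 and 29.9 percentile of protein-coding transcripts. Over 0-6 h its slope in shControl was positive.

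Outside the start-site set, EIF4E had the most negative slopes of the members. It had 31.3 and 28 CPM at 0 h and 9.15 and 9.08 at 10 h in shControl, and 32.2 and 31.8 against 9.65 and 9.23 in shZNF598. Its level at 10 h was 30.7% and 29.5% of that at 0 h, and its slopes were −0.188 and −0.198 log2 per hour (SE 0.026 each), whereas EIF4E3 was at 0.095 and 0.055 (SE 0.022 each). The eIF4A genes also spread, from EIF4A1 at 0.072 and 0.045 (SE 0.009 each) over EIF4A2 at −0.039 and −0.030 (SE 0.015 and 0.014) to EIF4A3 at −0.117 and −0.115 (SE 0.013 each). Of the scaffolds, EIF4G1 was at 0.088 and 0.101 (SE 0.011 each) and EIF4G3 at 0.038 and 0.057 (SE 0.015 each). EIF4G2 was at 0.109 in shControl and 0.037 in shZNF598 (SE 0.012 each). The 4E-BP genes were at −0.042 and −0.076 (EIF4EBP2, SE 0.013 each) and at 0.035 and 0.032 (EIF4EBP1, SE 0.023 each, not called).

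With TMM scaling most eIF3 genes had positive slopes. With library totals EIF3B, EIF3D and EIF3E changed sign in both groups, and EIF3L and EIF3M in shControl, so the counts below hold for TMM only. In each shRNA, 10 of the 14 (71.4%) had a positive slope past the threshold, where 33.5% and 32.7% of all tested transcripts did, while 2 in shControl and 1 in shZNF598 were negative. Without the copy EIF3CL, which was positive, and without EIF3J, which was negative, 9 of 12 were positive in each shRNA. EIF3I, a subunit of WD repeats, went from 64.4 and 80.1 CPM at 0 h to 233 and 244 at 10 h in shControl. In shZNF598 it went from 80.3 and 80.6 to 219 and 223. Its slopes were 0.185 and 0.162 (SE 0.016 each), above 95.6% and 94.7% of all protein-coding transcripts tested. EIF3C, a large core subunit, went from 44.1 and 37.3 CPM at 0 h to 119 and 110 at 10 h in shControl and from 40.3 and 33.6 to 113 and 97.3 in shZNF598, with slopes of 0.149 (SE 0.014) and 0.141 (SE 0.015). The small subunit EIF3K was at 0.149 and 0.136 (SE 0.017 each). EIF3J, a loosely bound subunit, was the exception with −0.098 and −0.112 (SE 0.019 each), and EIF3A was at −0.036 and −0.028 (SE 0.013 each), called in shControl only, a difference that the slope test gave as 0.008 (SE 0.019).

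EIF5A went from 51.6 and 62.5 CPM at 0 h to 165 and 172 at 10 h in shControl and from 57.1 and 56.8 to 140 and 145 in shZNF598, with slopes of 0.167 (SE 0.014) and 0.141 (SE 0.015), while EIF5A2 was at −0.142 and −0.146 (SE 0.019 each). EIF2S3, the subunit of eIF2 that binds GTP and tRNA, went from 74.7 and 75.2 CPM to 186 and 213 in shControl and from 78.9 and 82.5 to 186 and 174 in shZNF598, with slopes of 0.143 and 0.115 (SE 0.009 each). EIF2S1, which carries the serine that the eIF2 kinases phosphorylate, was at −0.107 and −0.132 (SE 0.019 each). The 3 subunits of 1 complex thus covered much of the range, with EIF2S2 at −0.012 and −0.043 (SE 0.013 each). The eIF2B genes ran from EIF2B2 at −0.129 and −0.120 (SE 0.017 each) to EIF2B1 at 0.047 and 0.051 (SE 0.012 each).

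The sign of a middling slope rested on the scaling. TMM factors were 1.12 to 1.17 at 0 h and 0.72 to 0.75 at 10 h, and with library totals alone the median slope of all transcripts shifted by −0.070 (shControl) and −0.063 (shZNF598) log2 per hour. The members called positive and negative were then 13 and 26 in shControl and 12 and 25 in shZNF598. This went with the shift of the whole set: under both scalings 28 members in shControl and 25 in shZNF598 lay above the median of all transcripts. Of the called members, EIF2B1, EIF3B, EIF3E and EIF4G3 changed sign in both groups, EIF3L in shControl, and EIF4A1, EIF4B, EIF4E3 and EIF4G2 in shZNF598.

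Apparent half-lives, without a spike-in factor and by a straight-line rule with R² above 0.9 and a value under 24 h in both groups, could be had for 7 of 48 members, where 18.9% of all tested transcripts gave one. They were 4.53 and 5.46 h for EIF1, 1.98 and 1.95 h for EIF1AD, 3.38 and 4.76 h for EIF1B, 18.5 and 14.9 h for EIF2B2, 9.75 and 9.64 h for EIF4A3, 5.7 and 5.45 h for EIF4ENIF1 and 6.03 and 10.5 h for EIF5A2, in shControl and shZNF598. No error can be given for a single value, and the line was drawn over a window of its own in each shRNA. For EIF1 it ended at 4 h in shControl and 10 h in shZNF598, for EIF1B at 6 and 4 h and for EIF2B2 at 4 and 6 h, and for EIF5A2 it reached the 24 h libraries, where shControl had 5 counts. The value was longer in shZNF598 for EIF1, EIF1B and EIF5A2, whose slopes over 0 to 10 h were no less negative there, so no order between the shRNAs is read from these half-lives. The medians over all 14990 transcripts were 4.84 and 5.05 h.

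At 24 h each shRNA had 1 library, so its values have no replicate check. On CPM scaled over all 22 libraries, EIF4G2 stood at 166 CPM (95% Poisson interval 160 to 172) in shControl and 132 (128 to 136) in shZNF598, after means of 595 and 324 at 10 h. EIF4A2 stood at 26.1 (23.8 to 28.6) and 33.2 (31.3 to 35.1), and EIF5A2, with 5 and 38 counts, at 0.285 (0.0925 to 0.665) and 1.09 (0.771 to 1.5). These intervals cover counting error only. By sign alone, the direction of the averaged difference was seen again at 24 h for 8 of the 10 called members. It was not for EIF4B, at log2 −0.12, and EIF4EBP1, at 0.37. Among the 8, the intervals of the 2 shRNAs overlapped for EIF4A1 at −0.02, EIF2A at 0.11, EIF4EBP2 at −0.14 and EIF3F at 0.17. Of all 48 members 17 were above 0 at 24 h, and their median was −0.08, against −0.04 for all transcripts. The median log2 change from 10 to 24 h was 0.04 in shControl and 0.01 in shZNF598, against 0.11 for all transcripts in both.

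At an annotated RefSeq start, several members have the pyrimidine run of TOP mRNAs. Because this motif marks mRNAs of the translation machinery, the annotated starts of called members are shown. A run was counted where the annotated RefSeq start (GRCh38.p14) read C followed by at least 4 further C or T on the strand of the gene. The first 4 sequences are of members that were higher in shZNF598 and have a run at that start, and the last 5 of the called members without one. EIF4EBP1 has no entry in the table. Each holds 10 bases before the start and 20 from it, with the run in capitals.
EIF4A2 (chr3:186783567-186783596, + strand): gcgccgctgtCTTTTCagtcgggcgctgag
EIF4B (chr12:53006446-53006475, + strand): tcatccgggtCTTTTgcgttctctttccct
EIF3F (chr11:7987327-7987356, + strand): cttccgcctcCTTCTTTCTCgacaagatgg
EIF2A (chr3:150546777-150546806, + strand): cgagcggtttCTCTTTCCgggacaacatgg
EIF4G2 (chr11:10807977-10808006, − strand): tgtcggaagcacttccctaacttgcgcctg
EIF4A1 (chr17:7572815-7572844, + strand): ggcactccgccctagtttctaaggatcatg
EIF4H (chr7:74174346-74174375, + strand): ctcgctcaccctggttcctctcggagcgga
EIF4EBP2 (chr10:70404135-70404164, + strand): gccttcgcccgcttccggtcgtcgtcgtcg
EIF5A2 (chr3:170908618-170908647, − strand): cccgtctcttggaactgccgcggccgccac

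Of 40 members with a start in the RefSeq table, 10 had such a run (25%), where 4.07% of all 35116 promoters of the same length and 7.65% of 8857 tested protein-coding genes did. They were EIF2A, EIF2D, EIF2S3, EIF2S3B, EIF3D, EIF3F, EIF3K, EIF3M, EIF4A2 and EIF4B. Of these 10, 4 were higher in the averaged level and none lower, whereas of the 30 without a run 1 was higher and 4 were lower. The call of EIF2A, among the 4, was lost in 14 of 20 fits that left out 1 library, and EIF2S3B is a near copy of EIF2S3. The 8 members without an entry, of which only EIF4EBP1 was called (lower), are in neither group. Over all tested genes, 20.1% of those with a run were higher and 10.2% lower, against 15.5% and 12.1% of those without. These counts describe the lists and carry no test, since they came from the calls given above. The RefSeq start of EIF3F lies inside the span of the transcript used here, which begins upstream of it, and which start the cells used was not measured.

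**Figure D5:**
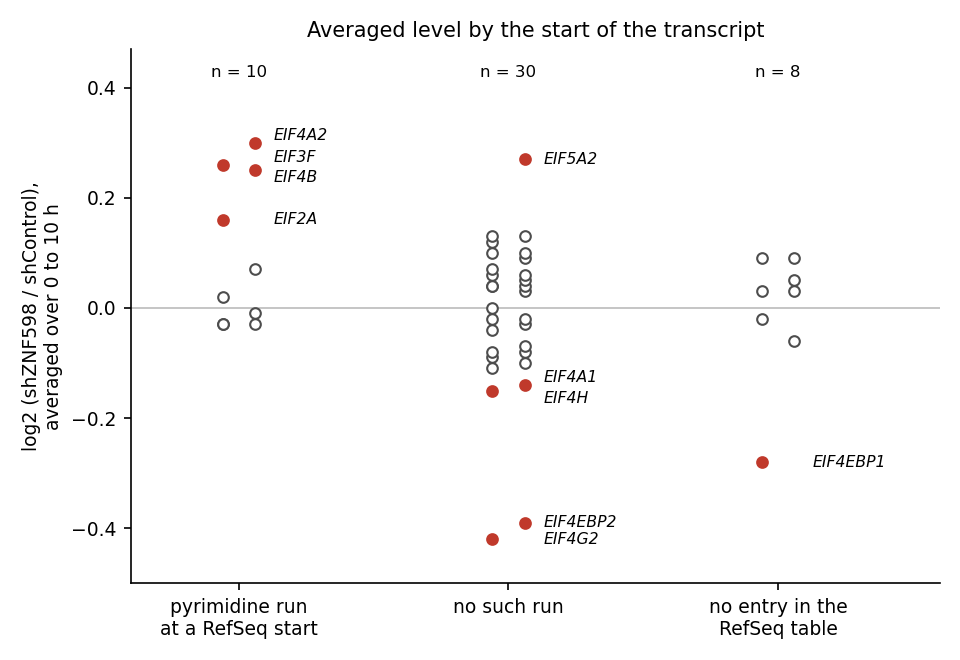
Log2 ratio of shZNF598 to shControl averaged over 0 to 10 h (y axis) for members with a pyrimidine run at a RefSeq start, without one, and with no entry in the table (x axis), with filled points for an adjusted p below 0.05. With a run, 4 of 10 members were called higher and none lower, and without one, 1 of 30 was higher and 4 were lower.

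Other features of the transcripts were compared with the slopes as a description over the 48 genes. ATTTA pentamers, the core of AU-rich elements, numbered 0 to 7.58 per kilobase of the 3′ untranslated region, with a median of 1.77 against 1.22 in all protein-coding transcripts. Their density had a Spearman rho of −0.47 with the slope in both shRNAs, where all protein-coding transcripts gave −0.14 and −0.17. The GC content had a rho of 0.34 and 0.35 with the slope, where all protein-coding transcripts gave 0.14 and 0.22. The length of the 3′ untranslated region had −0.3 and −0.31, near the −0.27 of all protein-coding transcripts in both shRNAs. Genes share base composition and library depth in these values, so they are not independent points.

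Annotated exons of another gene overlapped the row of 19 members, 6 of them on the same strand. The strand setting of the counting is not given in the sources used here, so antisense reads cannot be told apart from those of the member. Beside EIF4A1, given above, the largest overlaps on the same strand were 48.5% of the transcript for EIF3L and 26.6% for EIF6. On the opposite strand the largest overlaps with 1 gene were 25.5% for EIF2B2 and 22.4% for EIF2B1. Among the called members the largest there was 12%, for EIF4B.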

How the data were processed

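BRIC-Seq was analysed in 22 libraries of HEK293T cells. Per the labels and the study's methods, the authors trimmed reads with fastp, removed noncoding RNA, aligned the rest with STAR 2.7.0a to hg38 and the GENCODE annotation with 1 mismatch and 1 locus allowed, and used featureCounts to assign them to transcripts. Each deposited file holds 1 library, as unnormalized counts, beside the transcript length divided by 3. A read can count for several isoforms. The study used spike-in RNAs to rescale fold changes, which were not used here, so all slopes are relative. Groups and replicate numbers came from the labels.

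Identifiers were named with GENCODE v44 on GRCh38, and 98.4% of 227264 matched. The 79513 transcripts whose mean over the 20 libraries of 0 to 10 h reached 1 CPM were fitted with edgeR 4.0.16 (limma 3.58.1, R 4.3.3), using TMM scaling and the quasi-likelihood test, and p-values were adjusted over all of them after Benjamini and Hochberg. Levels at 0 h and averaged levels came from group means, and a model of hours nested in shRNA gave slopes and their difference. SEs were derived from the log2 change and its F value. Half-lives came from straight lines through DESeq2 1.42.0 log2 fold changes against 0 h, over the window (0 to 4, 6, 10 or 24 h) with the highest R². The 24 h libraries entered only half-lives, values and 1 alternative. The steps were tested on simulated data whose differences between shRNAs were larger than those of any member, so power at the sizes reported was not tested. Alternatives were scaling, filter, 1 row per gene, replicate block, chase window, DESeq2 and leaving out each library. Total counts per library, above, set a precision that covers counting error only.

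The members, role groups and gene lists were chosen with earlier results of these data known. Named with values are members with an adjusted p below 0.05 in a comparison between shRNAs, for each comparison the 3 with the smallest unadjusted p in each direction, for each shRNA the 4 highest and 4 lowest slopes, and paralogue pairs. Start sequences are from RefSeq (GRCh38.p14), matched by symbol for 40 of 48 members. Protein sequences were not used here.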

Additional observations from a re-analysis of the deposited data

How the results depend on the processing

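In the averaged level, 8 to 12 members were called in the 20 fits that each left out 1 library (3 to 7 higher, 4 to 6 lower), and 3 of them were higher without the shZNF598 10 h replicate 1 library, where 5 were with all libraries. EIF4A2, EIF3F, EIF4B, EIF4G2, EIF4EBP1, EIF4EBP2 and EIF4H kept their call and direction in all 20 of these fits and under the 7 other settings. At 0 h the count was 0 to 1 in these fits, and 1 without the shControl 0 h replicate 2 library. The slope difference called 1 member, lower, with the DESeq2 Wald test. A replicate block left 10 called members in the averaged level, 0 in the slope difference, 21 positive and 16 negative slopes in shControl and 22 and 17 in shZNF598, the same counts as without it. Deviations of same-numbered libraries from their group means at 1 time correlated at −0.33 to 0.45, above 0.1 for 3 of 5 times, so the numbers were not taken as pairs. The slope counts over 0-24 h were 14 in shControl (7 positive, 7 negative) and 15 in shZNF598 (7 and 8), where 1 library at 24 h carries much of the fit. With library totals they were 13 positive and 26 negative in shControl and 12 positive in shZNF598, by construction of the scaling. These counts under alternatives stand without the share of all tested transcripts and are not read as particular to the members. A fixed window of 0-10 h gave a half-life for 5 members.

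Slopes that changed sign and were called in at least 1 of the fits compared were the following, in log2 per hour. EIF4EBP1, called in neither, also changed sign with library totals, to −0.034 in shControl and −0.030 in shZNF598. With library totals in shControl they were EIF2B1 −0.023, EIF3B −0.028, EIF3D −0.059, EIF3E −0.019, EIF3L −0.012, EIF3M −0.058 and EIF4G3 −0.032, and in shZNF598 EIF2B1 −0.012, EIF3B −0.029, EIF3D −0.053, EIF3E −0.011, EIF4A1 −0.018, EIF4B −0.028, EIF4E3 −0.008, EIF4G2 −0.025 and EIF4G3 −0.006. Over 0-6 h in shControl they were EIF1AX 0.019, EIF2B3 0.056, EIF4A2 0.015, EIF4B 0.035 and EIF4H 0.039, and in shZNF598 EIF2B3 0.041, EIF2B5 0.049 and EIF3M 0.048. Over 0-24 h in shControl they were EIF3A 0.040, EIF3E −0.017, EIF4E3 −0.008, EIF4ENIF1 0.015 and EIF4G2 −0.010, and in shZNF598 EIF3E −0.011, EIF4B −0.014, EIF4E3 −0.040, EIF4ENIF1 0.008 and EIF4G2 −0.035. The cause of the changes over 0-6 h and 0-24 h was not tested. Under the other alternatives run, no called slope changed sign.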
